A study of Mus musculus with 4 samples.

Results

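The regions described here are 806 clusters of Argonaute-bound RNA in the 3'UTRs of 695 genes of mouse embryonic stem cells (ESCs). They were chosen by measured values: a gene entered when the ESC cytoplasm table listed 1 or 2 clusters in its 3'UTR and the myotube cytoplasm table listed none. Of these genes, 584 had 1 cluster and 111 had 2. They made up 79.8% of the 871 genes with a 3'UTR cluster in ESCs, and their clusters were 60.8% of the 1325 ESC 3'UTR clusters and 30.3% of all 2659 ESC clusters. Because the rule itself used the contrast between the cell types, the lack of a myotube cluster is a definition here and was not tested.

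Argonaute (AGO) proteins hold a miRNA and bind target mRNAs mostly in the 3'UTR, through pairing to the miRNA seed, the bases near its 5' end. Binding to such sites usually shortens the life of the mRNA and lowers its translation. In mouse ESCs the miR-290 cluster and the miR-17 family share much of their seed and are known regulators of the cell cycle and of the exit from pluripotency. In PAR-CLIP, cells take up a photoreactive nucleoside, ultraviolet light links it to the protein on the RNA, and the linked T is often sequenced as C, a T-to-C conversion.

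The study profiled AGO binding in the cytoplasm and nucleus of ESCs and of C2C12 myotubes, muscle cells fused from a mouse myoblast line. The nuclear samples were not analysed here. The ESCs carried a doxycycline-inducible HA-Flag-AGO2 transgene, were kept in serum with leukemia inhibitory factor, received 2.5 ug/ml doxycycline for 15 h, and were precipitated with the FLAG-M2 antibody. The myotubes were harvested after 2 days of fusion without a transgene being named, and their AGO proteins were captured with the Pan-AGO affinity peptide. Cells of both kinds were crosslinked at 312 nm for 5 min, and both lysates were treated with RNase T1, which cuts after G, before and after precipitation.

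Each group was 1 library, so differences between the cell types or between classes of clusters have no replicate check, and the cell type, the AGO source and the capture cannot be told apart. The ESC table held 214955 reads and the other 135023, of which 15585 and 3943 lay in 3'UTR clusters of named genes. The smallest myotube cluster had 5 reads, so a gene without a myotube cluster was below a calling limit and not shown to be unbound. RNA levels were not measured here, so less RNA and less binding cannot be told apart. Of 41 genes on a list of pluripotency factors, 17 had a cluster of any class in ESCs and 0 in myotubes. Of 42 skeletal muscle genes, 12 had one in myotubes and 6 in ESCs. Of 10 neuronal markers 1 had an ESC cluster, of 10 blood and liver markers none had one in either table, and of 10 fibroblast markers 1 had a myotube cluster.

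The clusters that carry the main sequence pattern are shown first. They are a selection, made after their values were seen, of member clusters with a match to a miRNA seed, in mm10 coordinates, each written 5' to 3' on the strand of the transcript as deposited, with the bases that pair to a seed in capitals. The deposited annotation placed each of them in the 3'UTR of the named gene. The first 8 hold a site of the miR-17 family (GCACTTT), of the miR-290 family (AGCACTT), or the 8 letters in which both overlap.
Pafah1b2, chr9:45968605-45968626, minus strand: aatcctttcttaagGCACTTTg
Tle4, chr19:14449688-14449710, minus strand: actcctcctcatAGCACTTTgcg
Kdelr2, chr5:143421745-143421764, plus strand: tttttctcatAGCACTTTtg
Rcan3, chr4:135416231-135416251, minus strand: tattctcaatgGCACTTTaag
Ssr1, chr13:37978664-37978691, minus strand: aaaaattcccaaacttcaAGCACTTaag
Uhmk1, chr1:170196154-170196174, minus strand: ttctttcttcAGCACTTactg
Epha4, chr1:77373673-77373698, minus strand: tttacctcatccatGCACTTTaattg
Rab11a, chr9:64715634-64715655, minus strand: ataatattaAGCACTTaccctg

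The next set shows sites of other families and sites that overlap. Klf2 holds a site of the miR-25 family (GTGCAAT), Pcbp1 one of miR-142-5p (ACTTTAT), Cops7a and Wasl one of miR-142-3p (ACACTAC), Srpk1 one of the miR-15 family (TGCTGCT) overlapping one of miR-103, and Zfp710 one of let-7 (CTACCTC). In Sash1 and Cmpk1 the miR-17 and miR-130 (TTGCACT) sites overlap, and in Pfkp those of miR-290, miR-17 and miR-142-5p do. In Larp4 a miR-142-5p site is followed by overlapping sites of miR-19 (TTTGCAC) and miR-130.
Klf2, chr8:72321122-72321144, plus strand: ttttcaaaatgGTGCAATaattg
Pcbp1, chr6:86524720-86524739, minus strand: tttctacACTTTATcatccg
Cops7a, chr6:124959096-124959116, minus strand: aaccccatcACACTACaattg
Wasl, chr6:24616231-24616250, minus strand: atactaaACACTACttcctg
Srpk1, chr17:28588719-28588742, minus strand: tcatcctATGCTGCTatttccttg
Zfp710, chr7:80092256-80092276, plus strand: caaaCTACCTCttcccacaat
Sash1, chr10:8722500-8722523, minus strand: caactaacaacaTTGCACTTTctg
Cmpk1, chr4:114960717-114960739, minus strand: attttaaaaatcaTTGCACTTTg
Pfkp, chr13:6581370-6581389, minus strand: ttatttatcAGCACTTTATg
Larp4, chr15:100014367-100014391, plus strand: aaACTTTATtTTTGCACTtaaaatg

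The miRNAs behind these sites are given by 1 mature sequence per family, taken from RefSeq (GRCm38.p6), with the seed (bases 2 to 8) in capitals. The miR-17 and miR-290 seeds share 6 letters, shifted by 1 base, which is why their sites overlap.
miR-20a-5p, of the miR-17 family: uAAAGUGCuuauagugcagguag
miR-294-3p, of the miR-290 family: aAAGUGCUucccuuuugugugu
miR-130a-3p: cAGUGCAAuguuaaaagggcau
miR-142a-5p: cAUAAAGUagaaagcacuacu
miR-142a-3p: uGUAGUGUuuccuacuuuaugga
miR-16-5p, of the miR-15 family: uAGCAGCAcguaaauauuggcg
let-7a-5p: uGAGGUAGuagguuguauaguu

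Several of the most-read clusters held no site of a searched family, and they are shown for comparison.
Pfn1, chr11:70652017-70652039, minus strand: ccattaccccatttcccttattg
Polr2a, chr11:69734298-69734318, minus strand: tcccttgtacataactccttg
Nanog, chr6:122714175-122714196, plus strand: catatactctctccttcccaag
Trim28, chr7:13030900-13030925, plus strand: tctctgtattttcaccccataccctg
Atp2a2, chr5:122456369-122456395, minus strand: cctattcaatggcacttcacaatctag
Ddx3x, chrX:13293391-13293410, plus strand: tacaaaaacactggcacttg

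Sites of the miR-17 family were the most frequent in these clusters and those of the miR-290 family came next. A site was a 7mer-m8 match, the 7 letters complementary to miRNA bases 2 to 8, on the transcript strand and within the cluster. For 40 miRNA families with a mature sequence at hand, the miR-17 site lay in 32 of the 806 clusters (3.97%, exact 95% interval 2.73 to 5.56) and in 31 of the 695 genes. Its letters read on the opposite strand were in 0 of the clusters; a count of 0 is taken to allow 3 counts, here 0.372% of the clusters. The miR-290 site lay in 22 clusters (2.73%, 1.72 to 4.10), also with 0 on the opposite strand. Read on the opposite strand either site holds 2 G in place of 1, and G is rare in these clusters, so these zeros are given as counts and no contrast is drawn from them. The sites overlapped in 13 clusters, so 41 clusters held at least 1 of the families. Intervals here and below cover counting error only, since PCR reads and clusters of 1 library are not independent.

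The other families followed at lower counts. Sites of miR-130 and of miR-142-5p were in 12 clusters each, of miR-142-3p in 8, of miR-15 and miR-19 in 6 each and of let-7 in 5. Sites of miR-25, miR-96 and miR-103 were in 3 clusters each, with 5, 4 and 0 on the opposite strand, so for miR-25 and miR-96 the opposite strand held more. The opposite-strand count was 1 for miR-142-5p and 0 for miR-130, miR-142-3p, miR-15, miR-19 and let-7. Of the 40 families, 23 had no site in these clusters. In all, 88 clusters (10.9%, 8.85 to 13.3) of 86 genes held a site of any searched family, and the same letters on the opposite strand were in 38 clusters (4.71%, 3.36 to 6.41). The letters of a site can hold more or fewer G on the opposite strand. G is rare in these clusters, so no contrast is drawn from these opposite-strand counts, for single families or in all. Of the 88 clusters, 25 held sites of 2 or more families. The families miR-1, miR-23, miR-122, miR-124, miR-133, miR-135, miR-145 and miR-467 were not analysed here.

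**Figure D1:**
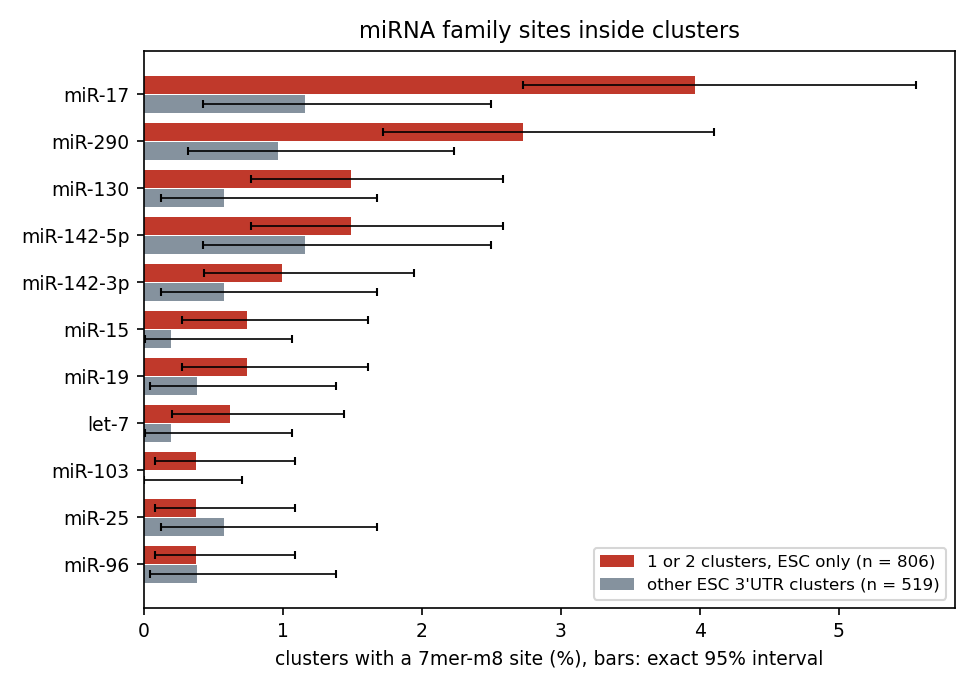
Percent of clusters with a 7mer-m8 site (horizontal axis) for the 11 families with most sites in the 806 clusters of ESC-only genes with 1 or 2 clusters (red), beside the 519 other ESC 3'UTR clusters (grey); whiskers are exact 95% intervals for counting error. The miR-17 bars stand at 3.97% and 1.16% and their intervals do not overlap, while those of the other families shown do. The 519 clusters belong to 176 genes, and per gene the miR-17 intervals of both classes overlap. Clusters of 1 library are not independent, and the difference was not tested.

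The 7-letter word present in the largest number of these clusters was the miR-17 site itself. GCACTTT came first among all 7-letter words with its 32 clusters, 3 words without G, TTTCCTT among them, followed with 24 each, and the miR-290 site AGCACTT ranked 5 with 22. The letters of GCACTTT can be written in 420 orders, 105 of which occurred in at least 1 cluster, and the mean was 0.557 clusters per order. The highest order that shares no 5 letters in a row with it, TTTGCAC, which is the miR-19 site, was in 6 clusters. Among the 630 orders of AGCACTT the mean was 0.362 and the site itself again came first. For miR-142-3p the site (8 clusters) tied with another order, CCACATA (8), against a mean of 2.92. The miR-142-5p site, by contrast, ranked sixth of its 105 orders, with ACATTTT in 18, and the let-7 site ranked 34th of 105 with a mean of 4.69. These counts describe 1 set of sequences and carry no test.

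The shared core of both leading families, GCACTT, was in 57 clusters. It was followed by T in 32 of them, which makes the miR-17 site, by A in 14, by C in 8 and by G in 3, and it was preceded by A in 22, which makes the miR-290 site. A 7mer-A1 match of miR-290, the core followed by A, was not counted as a site here. With it the miR-290 count was 30 clusters. In 16 clusters the core stood without either 7mer-m8 site. The most-read of these were in Atp2a2, the calcium pump of the endoplasmic reticulum (49 reads), and Ddx3x, an RNA helicase (48 reads), whose sequences are printed above in lower case because only this core matches.

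The clusters ended where RNase T1 cuts. The last base was G in 653 of 806 clusters (81.0%, 78.1 to 83.7) and the first base was G in 4. Inside the clusters G was rare: 6.03% of all their bases were G against 38.3% T, 27.9% A and 27.8% C, and in 489 clusters the only G was the last base. The base before the last was G in 0 clusters on either strand, and it was T in 53.7% of plus-strand and 60.05% of minus-strand clusters. The searched families were also split by the number of G in their site. The 19 searched families whose site holds 0 or 1 G accounted for 74 of the 88 clusters with a site, while the 21 families with 2 or more G accounted for sites in 14 clusters. The part of the G content in the order of the families was not tested.

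**Figure D2:**
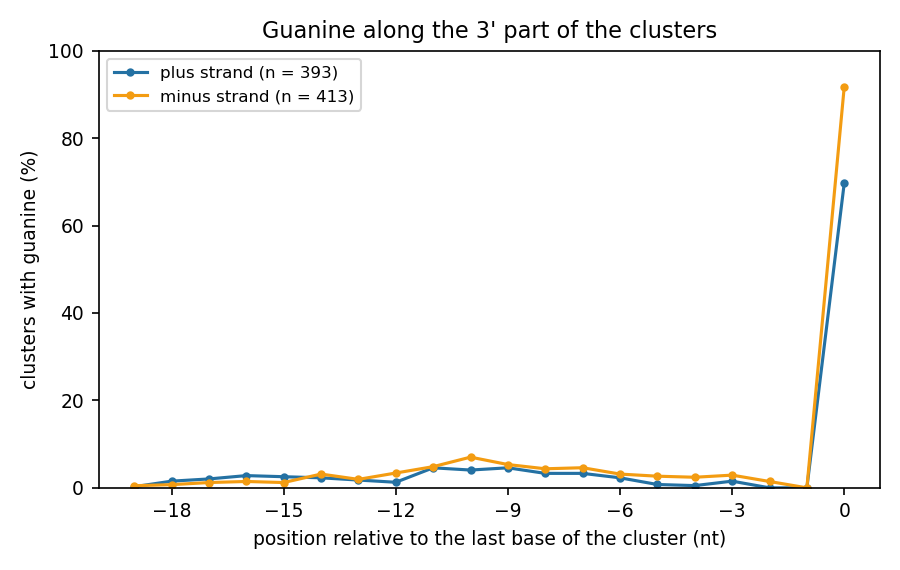
Percent of clusters with guanine (vertical axis) at each of the last 20 positions, counted back from the final base at 0 (horizontal axis, nt), for plus-strand (n = 393) and minus-strand (n = 413) clusters of the ESC-only genes with 1 or 2 clusters. Guanine stands at 69.7% and 91.8% at the final base and at 0 at the base before it.

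The miR-17 sites sat at a nearly constant place relative to the deposited mode position of the cluster. The first base of the site was 1 to 5 nt downstream of the mode in 29 of 32 clusters, with a median of 2 nt. The median was 1 nt for the 14 plus-strand and 2 nt for the 18 minus-strand clusters. For miR-290, whose site starts 1 base earlier where both overlap, the median was 1 nt and 13 of 22 sites lay 1 to 5 nt downstream. By strand, the miR-290 median was 0 nt on the plus strand, with 3 of 8 sites 1 to 5 nt downstream. On the minus strand it was 2 nt, with 10 of 14. The miR-130 sites had a median of 0, with 2 of 12 at 1 to 5 nt downstream. The miR-142-5p sites were spread from 17 nt upstream to 17 nt downstream. The headers do not say how the mode was defined; its base was T in 311 of the 806 clusters (38.6%), close to the T content of the sequences.

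**Figure D3:**
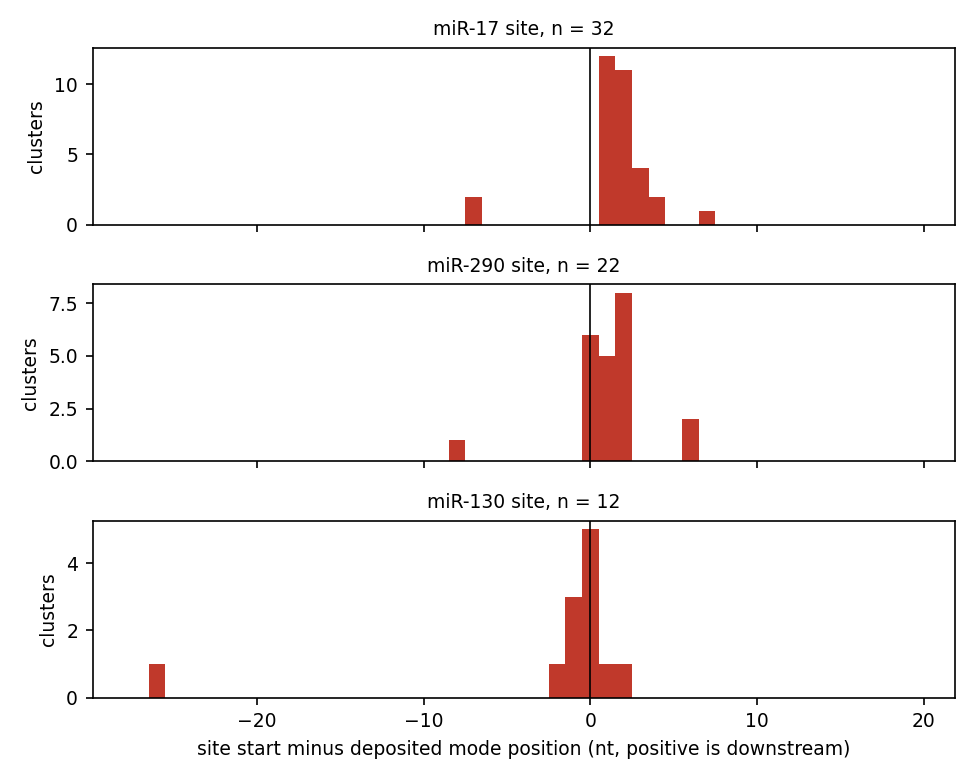
Number of clusters (vertical axes) by the distance in nt from the deposited mode to the first base of the miR-17, miR-290 or miR-130 site (horizontal axis, positive downstream). Of the 32 miR-17 sites 29 lie 1 to 5 nt downstream, and the miR-130 sites centre on 0.

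Clusters with a site had slightly more reads than those without. The 88 with a site had a median of 9 reads and 5 distinct read sequences, and the other 718 had 8 and 4. The share with at least 10 reads was 48.9% against 33.0%. The median share of converted reads was 82.6% against 80.0%. None of these differences was tested, as the clusters come from 1 library.

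Compared with the other ESC 3'UTR clusters, the miR-17 site was listed at a higher share per cluster, while the shares per gene lay closer together. It was in 6 of the 519 other clusters (1.16%, 0.425 to 2.50) against the 3.97% above. Those 519 clusters belong to only 176 genes, and per gene the shares were 3.41% (1.26 to 7.27) and 4.46% (3.05 to 6.27). Sites of any family were in 7.13% of the other clusters (5.07 to 9.69) and in 19.3% of their genes (13.8 to 25.9), against 12.4% (10.02 to 15.1) of the 695 genes. In the 558 ESC coding clusters the miR-17 site was in 13 (2.33%, 1.25 to 3.95) and the miR-290 site in 4. In the 363 myotube 3'UTR clusters they were in 2 and 0. The per-cluster and per-gene comparisons thus differ in direction for sites of any family, and neither was tested.

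A typical cluster was small. The median was 8 reads (quartiles 6 and 11, range 5 to 135) of 4 distinct sequences over 22 nt, and 770 clusters were at most 30 nt long. There were 158 clusters at the lower end with 5 reads, 280 clusters (34.7%) had at least 10 reads, and 11 had at least 50. Together the clusters held 8713 reads, 55.9% of the ESC 3'UTR reads but 4.05% of all ESC cluster reads. The median was 9 reads in clusters of ESC-only genes with 3 or more clusters and 11 in ESC clusters of genes also bound in myotubes. At least 10 reads were present in 45.5% and 53.8% of these.

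**Figure D4:**
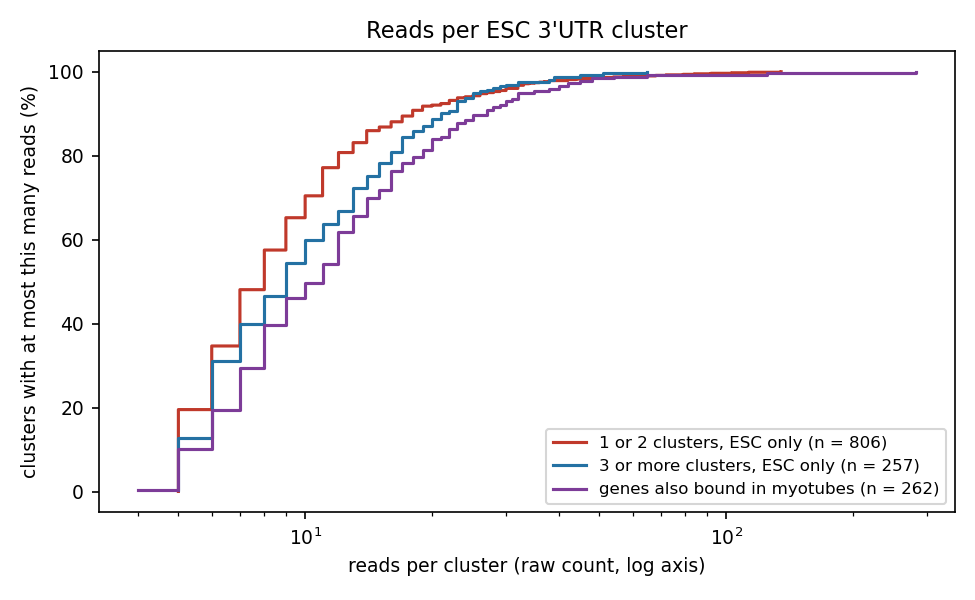
Cumulative percent of ESC 3'UTR clusters (vertical axis) with at most the given number of reads (horizontal log axis, raw counts), for ESC-only genes with 1 or 2 clusters, ESC-only genes with 3 or more, and genes also bound in myotubes. The medians are 8, 9 and 11 reads, so the curve of the first class runs highest through most of the range.

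The conversions that mark crosslinking were dense. Of all reads in these clusters 70.6% carried a T-to-C conversion, the median cluster had 80.0% converted reads at 3 positions, and in 220 clusters (27.3%) every read was converted. The clusters of genes with 1 cluster had a median of 81.8% and those of genes with 2 had 74.3%. This density was not particular to the set. The median was also 80.0% in ESC coding clusters and over all ESC clusters, and it was higher in ESC intron clusters and in myotube 3'UTR clusters. ESC clusters of genes also bound in myotubes had the lowest median, 67.4%, and those of ESC-only genes with 3 or more clusters lay between. With only clusters of at least 10 reads in both tables, the median of the set was 64.3%. The part of cluster size in these differences was not tested.

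The depth of the myotube library limits what its missing clusters show. Scaled by the ratio of 3'UTR cluster reads of the libraries (0.253), 66 of the 806 clusters (8.19%) would reach the 5 reads of the smallest myotube cluster. Scaled by the ratio of all cluster reads (0.628), 418 clusters (51.9%) would. The ESC side of both ratios includes the members' own reads, and the ratios do not cover the difference in AGO source and capture.

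The 12 genes with most reads held 11.8% of all reads of the set. Pfn1, the actin-monomer-binding protein profilin, led with 147 reads, 12 in one cluster and 135 in another 2 nt downstream. Pafah1b2, a catalytic subunit of a platelet-activating factor acetylhydrolase, had 118 reads, 113 of them in the cluster with the miR-17 site and 5 in a cluster 1217 nt further downstream. Tle4, a corepressor of the Groucho family, had 92 reads, and Kdelr2, a receptor that returns proteins to the endoplasmic reticulum, had 84. Each lay in a single cluster with the overlapping miR-17 and miR-290 sites. For Klf2, which encodes a Krüppel-like factor of the naive state, 79 reads lay in 1 cluster with a miR-25 site. Nanog, the pluripotency homeodomain factor, had 74 reads, 6 in the first cluster and 68 in the second, without a site.

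The other 6 leading genes also span several functions. Polr2a, the largest subunit of RNA polymerase II, had 94 reads in its 3'UTR and a further 101 in 9 coding clusters. Dctn4, a subunit of the dynactin motor adaptor, had 64 reads and a miR-17 site. Trim28, the corepressor recruited by KRAB zinc-finger proteins, had 60, and Fkbp4, an HSP90 co-chaperone, had 57. The histone H4 genes Hist1h4i (103 reads) and Hist1h4b (60 reads) had 1 cluster of 40 nt each. They belong to a family of near-identical genes, so the assignment of these reads to a single copy is uncertain. Among the 12, the share of converted reads ran from 19.1% in Polr2a (11.8 to 28.6) to 85.7% in Kdelr2 (76.4 to 92.4), and it was 40.1% in Pfn1 (32.1 to 48.5).

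**Figure D5:**
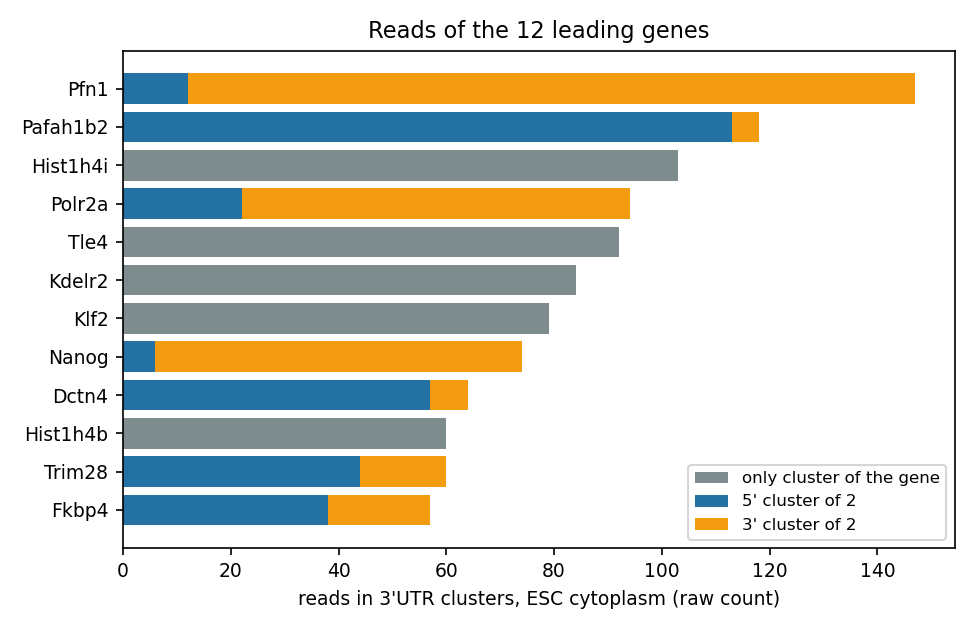
Reads in 3'UTR clusters (horizontal axis, raw counts of the ESC cytoplasm library) of the 12 genes with most reads, split into the upstream (5', blue) and downstream (3', orange) cluster where a gene had 2 and grey where it had 1. Pfn1 reaches 147 reads with 135 in its downstream cluster, and Pafah1b2 reaches 118 with 113 in its upstream cluster.

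Genes with sites of the leading families served varied functions. Besides Pafah1b2, Tle4 and Kdelr2, the miR-290 site was in a 37-read cluster of Ssr1, a protein of the translocon of the endoplasmic reticulum. The most-read miR-130 sites were in Sash1, a scaffold protein (29 reads), Larp4, a poly(A)-binding La-related protein (22 reads), and Cmpk1, a pyrimidine nucleotide kinase (15 reads). The most-read miR-142-5p sites were in Pcbp1, a poly(C)-binding protein (45 reads), Larp4 again, and Pfkp, a phosphofructokinase of glycolysis (19 reads). Grlf1, a GTPase-activating protein, held the miR-142-3p site in duplicate in a cluster of 10 reads. In the ESC table the mature miRNA miR-142a-3p itself was listed with 43654 reads at its own gene, while no cluster at a mature miRNA of the miR-17 or miR-290 family was listed. Every listed ESC cluster had at least 4 reads and 2 conversion positions, so a miRNA without a listed cluster is not shown to be absent. Next by reads were miR-27b-3p (891 reads) and miR-34a-5p (180 reads), whose families had a site in 0 and 1 of the 806 clusters. The relation of miRNA reads to sites was not tested.

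In the 111 genes with 2 clusters, the distance between the clusters varied widely. The gap between the clusters had a median of 434 nt (quartiles 145 and 1064, range 0 to 2761), and it was under 50 nt in 14 genes and under 500 nt in 61. The larger cluster had a median of 1.56 times the reads of the smaller. The upstream cluster was the larger in 56 genes, the downstream one in 50, and they were equal in 5. The 6 with most reads were more uneven: the ratio was 11.2 in Pfn1, 22.6 in Pafah1b2, 3.27 in Polr2a, 11.3 in Nanog, 8.14 in Dctn4 and 2.75 in Trim28. A seed site was in 1 of the clusters in 15 genes and in both in 2. Epha4, an ephrin receptor, was the only gene with the same family in both, with miR-17 sites in clusters of 24 and 5 reads that lie 3 nt apart.

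By median, clusters of these genes lay nearer to the end of the gene than those of the other classes. The distance from the cluster to the 3' end of the RefSeq gene had a median of 845 nt, against 1154 nt for ESC-only genes with 3 or more clusters and 1112 nt for genes also bound in myotubes. Within 100 nt of the end lay 11.9%, 3.15% and 7.36% of them. Myotube 3'UTR clusters came closest to the set by median, with 940.5 nt, and 7.87% of them lay within 100 nt. The lengths of the 3'UTRs were not used here, and their part in these distances was not tested. The polyadenylation signal AATAAA was in 37 clusters (4.59%, 3.25 to 6.27) on the transcript strand and its letters were in 27 on the opposite strand. In the other ESC 3'UTR clusters it was in 4.24%.

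Motifs of other RNA-binding proteins were searched on both strands and were infrequent. The AU-rich pentamer ATTTA was in 55 clusters (6.82%) on the transcript strand and in 67 on the opposite strand. The Pumilio motif TGTANATA was in 9 clusters (1.12%, 0.512 to 2.11), against 3 on the opposite strand and 2 of the 519 other ESC 3'UTR clusters (0.385%, 0.0467 to 1.39). The repeat TGTGTG was in 0 clusters, with 13 on the opposite strand, where its letters hold no G, so no contrast is drawn.

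Pluripotency factors included several of the well-read genes. Of 14 listed factors with an ESC 3'UTR cluster, 9 belonged to the set (64.3%, where 79.8% of all such genes did) and the other 5 had 3 or more clusters. After Klf2 (79 reads) and Nanog (74 reads) came Sall4, a zinc-finger factor of the pluripotency network (34 reads), Fgf4, the autocrine growth factor of ESCs (21 reads in 2 clusters), and Tbx3 (19 reads). Rif1, Tcl1, Jarid2 and Lefty1, an inhibitor of Nodal, had 6 to 11 reads. Only Klf2 had a searched seed site. Over all 695 genes 12.4% had one, the share to set beside the site counts of this and the following lists. The shares of lists are given as counts and read against the 79.8% without a test, and with lists this small a few genes move them.

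Of 11 chromatin regulators with an ESC 3'UTR cluster 7 belonged to the set. Uhrf1, which brings the maintenance DNA methyltransferase to newly replicated DNA, had 30 reads, Smarcd1 of the BAF remodelling complex 15 in 2 clusters, 1 of them with a let-7 site, and Dnmt1, that methyltransferase, 14. Ezh1, a histone methyltransferase of Polycomb, had 12 reads in a cluster where the miR-17 and miR-130 sites overlap. Of 3 cell cycle genes 2 belonged to the set, and both, the CDK inhibitor Cdkn1b (10 reads) and the antiproliferative gene Btg2 (7 reads), lacked a searched site.

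Genes of apoptosis and p53 belonged to the set in 8 of 10 cases, with a median of 14.5 reads. Ei24, a p53-induced gene, had 41 reads in 2 clusters, Mcl1, an antiapoptotic BCL2 relative, 34 in 2, and Trp53 itself 23 in 1. Foxo3, Perp and Xiap had 5 to 13. None of the 8 held a searched site.

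Signalling genes had mostly small clusters. In the Wnt list, 2 of 4 belonged to the set: Ctnnb1, the beta-catenin of the pathway, with 38 reads and the receptor Fzd7 with 7. In the FGF, RAS and MAPK list 6 of 7 did, with Fgf4 at 21 reads, the cytokine receptor subunits Il6st and Lifr at 10 each, and Braf and Map2k1 at 7 each. Il6st and Lifr form the receptor for leukemia inhibitory factor. In the TGF-beta list 4 of 5 did, with the SMAD corepressors Ski (13 reads) and Skil (5 reads), the common mediator Smad4 (9 reads) and Lefty1 (6 reads). None of the member genes on these 3 lists held a searched site. Of 6 Hippo and adhesion genes 1 belonged to the set, Nf2 (15 reads in 2 clusters).

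Among genes that act on mRNA, 5 of 10 of the miRNA pathway belonged to the set, and all had few reads. Ago2, which these ESCs also carried as the inducible transgene, had 8 reads, Cnot2 of the deadenylase complex 8, Edc4 of the decapping complex 8, the decapping enzyme Dcp2 7 and the AGO partner Tnrc6a 6. Whether the Ago2 reads come from the endogenous mRNA or the transgene cannot be told apart. Of 22 RNA-binding and translation genes 11 belonged to the set, among them Caprin1 (25 reads) and Fmr1, the fragile X protein (22 reads), and 8 others were bound in both cell types.

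Of the housekeeping lists, 9 of 10 ubiquitin and proteasome genes belonged to the set, led by the F-box protein Fbxl5 (25 reads, with a miR-17 site in 1 of its 2 clusters), the deubiquitinase Usp22 (19 reads) and the conjugating enzyme Ube2z (18 reads). Membrane trafficking genes did so in 13 of 20 cases, led by Vapa (28 reads), Rab11a, a GTPase of recycling endosomes (23 reads, miR-290 site), and Rab18 (20 reads). Of 6 glycolysis and nutrient uptake genes 5 did, with Pfkp (19 reads), the transferrin receptor Tfrc (12 reads) and Pdk1 (8 reads). Of 4 mTOR and autophagy genes 2 did, Ulk1 (8 reads) and Mtor (6 reads, miR-96 site). The 1 listed nuclear gene of the mitochondrial respiratory chain with an ESC 3'UTR cluster, Uqcrfs1, had 11 reads. No skeletal muscle gene belonged to the set; all 3 with an ESC 3'UTR cluster were also bound in myotubes.

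Genes known from the literature as targets of the leading families were few. Of 8 listed targets of the miR-290, miR-302 and miR-17 families with an ESC 3'UTR cluster 6 belonged to the set. Among these 6, Tnfaip1, an adaptor of a ubiquitin ligase (9 reads), held a site of these families in its cluster. Ei24 (41 reads) did not. Over all 695 genes the miR-17 site was in 4.46% and the miR-290 site in 3.17%. Of 5 listed let-7 targets 2 belonged to the set, and neither held a let-7 site, which was in 0.719% of the 695 genes. Nr6a1 had 6 reads.

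Some of these genes were bound outside the 3'UTR. In ESCs 103 of the 695 genes (14.8%, 12.3 to 17.7) had a cluster of another class, mainly in coding sequence (123 clusters of 86 genes). In myotubes 17 genes (2.45%, 1.43 to 3.89) had one. The myotube share was 10.3% (5.41 to 17.2) among genes with 3'UTR clusters in both cell types, which were chosen for being bound in myotubes. Among ESC-only genes with 3 or more clusters it was 1.69% (0.0429 to 9.09). Anp32e, a histone chaperone, had 19 myotube reads, Luc7l2, a splicing factor, 13 in introns, Ubap2l 13, and the endoplasmic chaperone Hspa5 10. Lima1, an actin-bundling protein, had 9, and Ablim1, an actin-binding protein, and Hspa9, the mitochondrial chaperone, had 7 each. No member cluster overlapped a myotube cluster of any class. The rule largely fixes this, because it removes every gene with a myotube 3'UTR cluster.

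The limits of the rule pass through a continuum of values. Just outside on the number of clusters were 30 ESC-only genes with exactly 3, with a median of 29 reads per gene, against 18 for genes with 2 clusters and 7 for genes with 1. The pluripotency factor Sox2 (64 reads), the deubiquitinase Usp28 (60 reads) and the purine synthesis enzyme Paics (56 reads) led these. Just outside on the myotube side were 85 genes with 1 or 2 ESC clusters and at least 1 myotube 3'UTR cluster, 67 of them with exactly 1. Metallothionein Mt2 had 282 ESC reads, above every gene in the set, and 18 myotube reads, and Skp1a had 56 and 16.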

How the data were processed

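Cluster tables of 2 of the 4 samples, ESC cytoplasm and myotube cytoplasm, were used, and each was matched to its sample by its worksheet name. Sample titles end in "(2)", which the labels do not explain, so each table was taken as 1 library. The authors deposited raw counts per cluster (reads, distinct sequences, conversion positions, reads by mismatch) and, per the file headers, a fraction for reads with a conversion and a fraction for reads that end in G. The mode is a deposited coordinate. Per the submitters' processing notes, bcl2fastq 2.17.1 was used and positions are on mm10. How reads were aligned, how clusters were called and whether libraries were pooled is not given in the sources used here. Empty lines (4 in the ESC and 1 in the myotube table) were skipped.

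The ESC clusters had at least 4 reads and the myotube clusters at least 5, and all had at least 2 conversion positions. Members and gene lists were chosen with earlier results of these data known. Shares carry exact Clopper-Pearson 95% intervals, and for a count of 0 the limit printed is 3 counts. No test was made, since each group is 1 library. Distances used RefSeq genes (GRCm38.p6), to which 691 of the 695 symbols matched. Cluster ends were described by the last base of the deposited cluster sequence, and the deposited fraction of reads ending in G was not used for this, because it depended on the strand. Genes named were the 12 with most reads, the 3 most-read per leading family and per gene list, the 6 most-read with 2 clusters, the 8 most-read in myotubes outside the 3'UTR and the 3 most-read with exactly 3 clusters; other genes named or printed as sequences were chosen after their values were seen, as were the motifs. Some genes that the rule names are not reported here. The member rule and the site search were tested on simulated data. Python 3.11.15, pandas 2.3.3 and scipy 1.17.1 were used.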

Additional observations from a re-analysis of the deposited data

How the results depend on the processing

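With only clusters of at least 10 reads in both tables, 328 genes with 365 clusters met the rule, 261 of them among the 695, and 67.8% of ESC 3'UTR clusters belonged to the set. Then 14.0% of the clusters held a seed site, 21 a miR-17 site and 16 a miR-290 site. Sites of miR-130 were in 8 of these clusters, of miR-142-3p in 7 and of miR-142-5p in 3. Those of miR-15 and miR-19 were in 2 each and those of let-7 in 0. Counting clusters under 50 nt apart as 1 when the rule was applied kept all 695 genes and added 12. The clusters of these genes, each still counted singly, were 63.6% of the ESC 3'UTR clusters. Requiring 3 distinct sequences left 627 genes, 599 of them shared, and dropping genes with any myotube cluster left 678. A 6-letter site was in 24.1% of clusters (miR-17 in 56), an 8-letter site ending in A in 4.09% (miR-17 in 10), and a 7mer-m8 or 7mer-A1 site in 15.1%. Of the 12 leading genes, 5 stayed when ranked by distinct sequences and 7 by reads per nt. The values compared were counts, shares and medians, which have no direction that could reverse. The comparisons with other classes of clusters were not repeated under these settings, and the cause of these moves was not tested. Split by strand, an alternative chosen after seeing the data, 69.7% of plus-strand and 91.8% of minus-strand clusters ended in G. No paired analysis was possible because each group held 1 library. Clusters of 5 to 10 reads limit every count of sites and of missing myotube clusters.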

Other observations

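The deposited share of reads ending in G depended on the strand. Its median was 87.5% over the 393 plus-strand clusters and 0 over the 413 minus-strand clusters. On the minus strand it was 0 in 404 clusters, of which 371 had a deposited sequence that ends in G. The median reads were 7 and 8 and the median converted share was 80.0% on both strands, so these columns did not show the same split.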
